A study of Homo sapiens with 24 samples.

Results

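Transfection of an siRNA, whichever of 8 siRNAs was used, was compared with mock transfection in SKOV3.ip1 cells, which derive from SKOV-3, an established line of human ovarian carcinoma. All 24 of the 24 libraries of the series entered the comparison, chosen by their labels alone, 16 with an siRNA and 8 without. The study depleted 4 RNA-binding proteins that regulate splicing (RBFOX2, hnRNPC, hnRNPM and SRSF1), each with 2 siRNAs, and measured RNA by TGIRT-seq, in which the reverse transcriptase of a thermostable group II intron copies fragments of ribosome-depleted RNA. The siRNA groups were RBFOX2 siRNA_1 and siRNA_2, hnRNPC siRNA_2 and siRNA_3, hnRNPM siRNA_1 and siRNA_3, and SRSF1 siRNA_1 and siRNA_3, each at 100 nM with Lipofectamine 2000 and each with 2 libraries. The mock cells received Lipofectamine and no siRNA, in 4 sets of 2 libraries, and RNA was taken 72 h after transfection in every group. Mock n4/n5 was the control of both RBFOX2 siRNAs, mock oct of both hnRNPC siRNAs and of hnRNPM siRNA_1, mock nov of SRSF1 siRNA_1, and mock jan of hnRNPM siRNA_3 and SRSF1 siRNA_3. The series describes the 2 libraries of a group as biological replicates of this one cell line. The design holds no siRNA without a target, so the presence of an siRNA and the loss of a splicing regulator cannot be told apart in any value given here.

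An siRNA is a short double-stranded RNA. One of its strands is loaded into an Argonaute protein and guides the cleavage of a matching messenger RNA, while partial matches through the seed region can lower other transcripts, as microRNAs do. Double-stranded RNA can also be sensed by the kinase PKR (encoded by EIF2AK2) and by the helicases RIG-I (DDX58) and MDA5 (IFIH1), which signal through MAVS and IRF3 to interferon-stimulated genes. The comparison asks which transcripts differed from mock on average over the 8 siRNAs, and in how many of the 8 comparisons they differed in the same direction.

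Values were TPM scaled by the median ratio between libraries, called scaled TPM below, and differences are those of log2(scaled TPM + 1), which understates changes of weakly expressed genes. Sequencing depth is unknown. Between 12637 and 15734 genes reached 1 TPM in a library. Small structured RNA genes took 66.9% to 79.7% of the TPM in siRNA libraries and 64.7% to 80.8% in mock libraries, a mean difference of -0.175 percentage points within mock sets (exact two-sided permutation test, p = 0.889). Each targeted gene was lower with its own siRNAs: RBFOX2 averaged 5.50 and 4.42 scaled TPM with siRNA_1 and siRNA_2, against 17.2 in mock n4/n5 (n = 2 each), and HNRNPC 44.8 and 40.4 with siRNA_2 and siRNA_3, against 149 in mock oct. HNRNPM averaged 8.91 with siRNA_1, against 38.3 in mock oct. Of 13 ovarian carcinoma and epithelial markers 10 were tested, with a summed level of 965 to 1316 scaled TPM in siRNA libraries and 928 to 1222 in mock libraries, and 0 were called; after the GC correction described below 2 fell. KRT7, chosen after its value was seen, stood at -0.24 (limma adjusted p = 0.0522). Leukocyte, endothelial and fibroblast markers had 0 tested members, and their summed levels were at most 0.336, 0.476 and 1.29 scaled TPM in siRNA libraries and 0.210, 0.313 and 0.944 in mock libraries. The 13 mitochondrially encoded messenger RNAs were listed at 0 in every library and are not analysed here.

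The average response to an siRNA was broad and small. Of 16994 tested genes 974 (5.73%) were called by limma at an adjusted p under 0.05, of which 359 (2.11%) rose and 615 (3.62%) fell, with a median absolute log2 change of 0.20. Scaled instead to the same summed TPM without small structured RNA genes, 397 rose and 411 fell, so that 49.1% of the calls were upward against 36.9%. The same sign in all 8 comparisons was seen for 932 genes (5.48%), with 468 genes (2.75%) that were higher with siRNA and 464 (2.73%) that were lower. Comparisons that share a mock set are not independent: mock oct served 3 of the 8, mock n4/n5 and mock jan 2 each and mock nov 1. Over the 4 mock sets, which share no library, 1826 genes (10.7%) were higher with siRNA in all 4 sets and 1999 (11.8%) lower. Called and of the same sign in all 8 were 357 genes (2.10%), of which 158 (0.930%) rose and 199 (1.17%) fell. Their mean log2 changes lay between 0.106 and 0.740 in size, and 327 of the 357 were protein-coding.

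**Figure D1:**
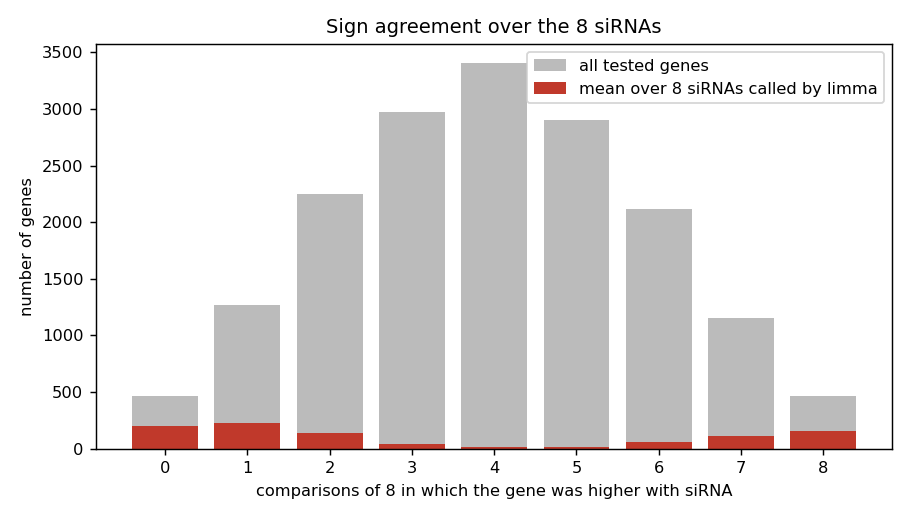
Number of tested genes (vertical axis) by the number of the 8 comparisons in which the gene was higher with siRNA than in its mock set (horizontal axis, 0 to 8); grey bars are all tested genes and red bars those called on average by limma. The tallest bar is the 3403 genes higher in 4 of 8, of which 13 were called; of the 468 genes higher in all 8, 158 were called, and of the 465 higher in none, 1 of which had a difference of 0, 199.

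The size of the response depended on which siRNA was used. The F test of equal differences over the 8 siRNAs called 2907 genes (17.1%), among them 517 (3.04% of all tested) of the 974 genes called on average and 79 (0.465%) of the 357 with one sign throughout. Taken alone, hnRNPC siRNA_2 gave 889 genes (5.23%) that rose and 1366 (8.04%) that fell against its mock set, and hnRNPC siRNA_3 gave 152 (0.894%) and 309 (1.82%). SRSF1 siRNA_1 gave 201 (1.18%) that rose and 300 (1.77%) that fell, and SRSF1 siRNA_3 gave 242 (1.42%) and 310 (1.82%). The smallest counts were those of the RBFOX2 and hnRNPM siRNAs. RBFOX2 siRNA_1 gave 10 (0.0588%) that rose and 73 (0.430%) that fell, and RBFOX2 siRNA_2 gave 83 (0.488%) and 60 (0.353%). For hnRNPM siRNA_1 the counts were 26 (0.153%) and 89 (0.524%), and for hnRNPM siRNA_3 15 (0.0883%) and 33 (0.194%). The test above measures the spread between libraries of a group, not the spread between siRNAs. When the 12 group means were fitted instead, with siRNA groups as the replicates, limma called 0 genes (1262, or 7.43%, at an unadjusted p under 0.05), and the smallest adjusted p was 0.624. The calls below therefore hold for these 8 siRNAs, and were not shown for siRNAs in general.

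Single mock libraries carried part of the count. It was 399 without mock oct replicate 3, 529 without mock n4/n5 replicate 4, 532 without mock jan replicate 1 and 593 without mock jan replicate 2, against 974 with every library, and among the genes of one sign in all 8 comparisons it was 149 without mock oct replicate 3, 187 without mock n4/n5 replicate 4 and 199 without mock jan replicate 1, against 357. With the TPM as deposited and no scaling, 51 genes were called, 8 of them with one sign in all 8.

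Library values leaned more toward GC-rich genes with siRNA than in mock, by a test near its threshold. The rank correlation of a library's deviation from the gene mean with the gene's GC content, over 11270 protein-coding genes, had a median of 0.147 in siRNA libraries and -0.404 in mock libraries, a mean difference of 0.214 within mock sets (exact two-sided permutation test, p = 0.0433). It was higher with siRNA in every set, by 0.300 for n4/n5, 0.258 for oct, 0.0960 for nov and 0.200 for jan, although leaving out any 1 set gave a p between 0.0689 and 0.119. The permutation exchanges single libraries within a set. It thus treats the libraries of one siRNA, and libraries of the same replicate number, as independent. Within mock n4/n5 the replicates stood at -0.197 and 0.546, and within mock oct at 0.395 and -0.444. Genes that rose had a median GC content of 54.9% and genes that fell one of 43.2%, against 47.5% for all tested genes. After each library was corrected for this trend, 409 genes (2.41%) rose and 671 (3.95%) fell, and 778 of the 974 were still called.

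**Figure D2:**
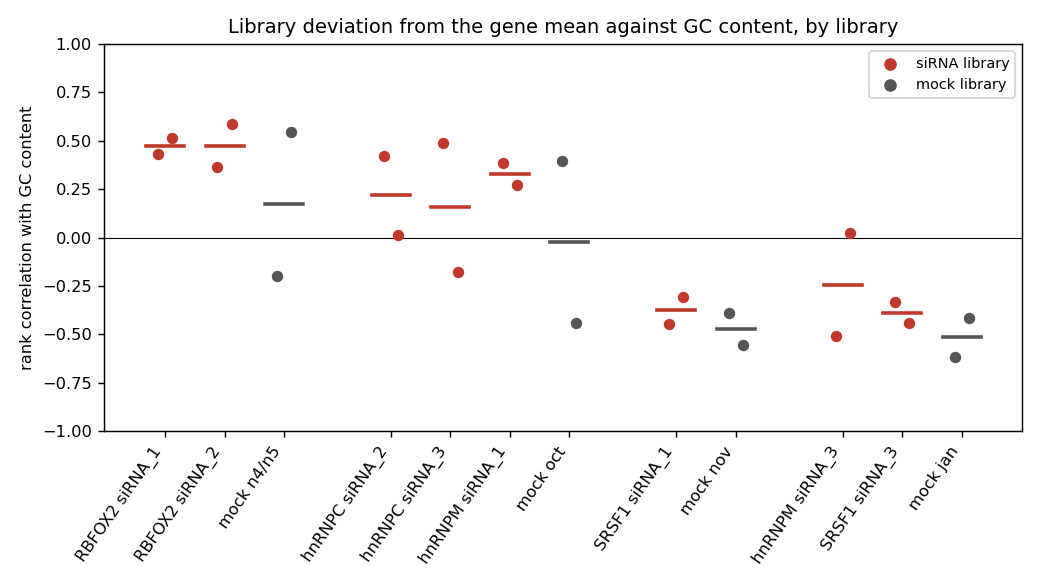
Rank correlation between a library's deviation from the gene mean and GC content (vertical axis, 11270 protein-coding genes) for each of the 24 libraries, siRNA libraries in red and mock libraries in grey, grouped by mock set; bars are group means. The group means of siRNA libraries lie above those of their own mock set, most widely for n4/n5 (0.300) and least for nov (0.0960), and the mock replicates of n4/n5 and of oct lie far apart.

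GUF1, PHC2 and SDC4 were proposed as leading genes of this response with the data in view, so their tests describe them and do not add independent support. Their promoters, the 250 bases before the RefSeq start in GRCh38.p14, are shown because the 3 genes each kept one sign with every siRNA. The smallest differences were not called for the single siRNA (limma adjusted p in brackets). They were -0.11 for GUF1 with RBFOX2 siRNA_2 (0.593), 0.10 for PHC2 with hnRNPM siRNA_3 (0.851) and 0.07 for SDC4 with hnRNPC siRNA_3 (0.736). The largest were called: -0.56 for GUF1 (0.000745) and 0.47 for PHC2 (0.000665) with hnRNPC siRNA_2, and 0.50 for SDC4 with SRSF1 siRNA_1 (0.0028). Capitals mark the E-box CACGTG, a palindrome bound by MYC and TFEB family factors, found in 2228 of 35116 promoter windows (6.34%); both strands were searched, and the match lies 62 bases upstream of the start in GUF1 and 52 bases upstream in PHC2. A second RefSeq window of PHC2 and the window of SDC4 held no match. GC content was 53.2% for GUF1, 66.8% for PHC2 and 73.6% for SDC4. The windows are chr4:44678170-44678419 (plus strand) for GUF1, chr1:33431096-33431345 (minus strand) for PHC2 and chr20:45348425-45348674 (minus strand) for SDC4.
GUF1: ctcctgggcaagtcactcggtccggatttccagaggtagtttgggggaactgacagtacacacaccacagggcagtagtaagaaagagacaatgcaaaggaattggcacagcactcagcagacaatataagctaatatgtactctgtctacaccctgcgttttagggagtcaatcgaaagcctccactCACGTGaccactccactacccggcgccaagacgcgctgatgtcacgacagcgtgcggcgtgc
PHC2: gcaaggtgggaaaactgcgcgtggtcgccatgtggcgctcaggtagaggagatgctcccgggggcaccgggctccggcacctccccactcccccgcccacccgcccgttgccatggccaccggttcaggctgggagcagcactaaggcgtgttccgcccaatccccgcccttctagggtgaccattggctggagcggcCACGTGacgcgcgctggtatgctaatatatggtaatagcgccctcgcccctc
SDC4: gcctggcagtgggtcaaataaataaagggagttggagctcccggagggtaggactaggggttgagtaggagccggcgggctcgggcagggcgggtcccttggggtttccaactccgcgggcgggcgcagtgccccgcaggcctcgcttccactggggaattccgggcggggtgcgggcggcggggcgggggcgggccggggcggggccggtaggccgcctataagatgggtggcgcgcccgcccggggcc

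GUF1, which encodes a mitochondrial translation factor of the LepA family, was lower with every siRNA. It stood at 10.5 and 11.2 scaled TPM with RBFOX2 siRNA_1 and at 11.1 and 11.8 with RBFOX2 siRNA_2, against 12.6 and 12.3 in mock n4/n5. With hnRNPC siRNA_2 it stood at 10.1 and 8.68, with hnRNPC siRNA_3 at 9.72 and 9.88, and with hnRNPM siRNA_1 at 13.1 and 12.8, against 13.5 and 15.0 in mock oct. With SRSF1 siRNA_1 both libraries had 11.2, against 15.3 and 17.2 in mock nov. All these siRNA libraries lay below the mock libraries of their own set. The same held in the jan set, where hnRNPM siRNA_3 gave 14.7 and 14.2 and SRSF1 siRNA_3 gave 9.92 and 11.8, against 16.0 and 16.3 in mock jan. Over the 8 siRNAs GUF1 fell by 0.33 on the log2 scale (SE 0.0384, limma adjusted p = 0.000395). The differences ranged from -0.56 with hnRNPC siRNA_2 to -0.11 with RBFOX2 siRNA_2 and were not equal across siRNAs (F test adjusted p = 0.00526).

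PHC2, a Polyhomeotic subunit of Polycomb repressive complex 1, was higher with every siRNA. It stood at 23.5 and 22.1 scaled TPM with RBFOX2 siRNA_1 and at 30.3 and 27.2 with RBFOX2 siRNA_2, against 19.7 and 21.6 in mock n4/n5. With hnRNPC siRNA_2 it stood at 27.6 and 30.1, with hnRNPC siRNA_3 at 24.6 and 24.5, and with hnRNPM siRNA_1 at 22.2 and 23.3, against 19.9 and 21.1 in mock oct. With SRSF1 siRNA_1 it stood at 28.1 and 28.0, against 20.2 and 20.9 in mock nov. In the jan set hnRNPM siRNA_3 gave 20.003 and 21.2 and SRSF1 siRNA_3 gave 22.0 and 21.0, against 18.9 and 19.4 in mock jan. No siRNA library overlapped the mock libraries of its set. PHC2 rose by 0.27 (SE 0.0320, limma adjusted p = 0.000436), between 0.10 and 0.47 by siRNA (F test adjusted p = 0.00797). Its paralogues PHC1 and PHC3, named for their relation to it and outside the naming rule, stood at mean log2 differences of 0.04 (adjusted p = 0.757) and -0.09 (adjusted p = 0.383).

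SDC4, the cell surface heparan sulfate proteoglycan syndecan-4, which takes part in focal adhesion and in uptake at the cell surface, was also higher with every siRNA. It stood at 41.4 and 40.6 scaled TPM with RBFOX2 siRNA_1 and at 46.1 and 45.6 with RBFOX2 siRNA_2, against 35.3 and 35.6 in mock n4/n5. With SRSF1 siRNA_1 it stood at 46.8 and 47.9, against 35.1 and 31.6 in mock nov. With hnRNPM siRNA_3 it stood at 33.9 and 39.2 and with SRSF1 siRNA_3 at 36.3 in both libraries, against 28.7 and 29.1 in mock jan. In these 3 sets the siRNA libraries lay above their mock libraries. In the oct set they overlapped: hnRNPC siRNA_2 gave 47.3 and 44.7, hnRNPC siRNA_3 gave 38.6 and 34.6 and hnRNPM siRNA_1 gave 38.8 and 37.7, against 35.7 and 33.8 in mock oct. SDC4 rose by 0.29 (SE 0.0344, limma adjusted p = 0.000442), with differences from 0.07 to 0.50 (F test adjusted p = 0.0359). The other syndecans, given after their values were seen, stood at mean log2 differences of 0.03 for SDC1 (adjusted p = 0.868), -0.03 for SDC2 (0.827) and -0.02 for SDC3 (0.942). SDC1 differed between siRNAs, from -0.47 to 1.12 (F test adjusted p = 0.000217).

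The calls of GUF1, PHC2 and SDC4 held without each of the 24 libraries, without each mock set and without each protein's siRNAs. They were lost with the TPM as deposited (adjusted p = 0.122, 0.173 and 0.121) and with siRNA groups as the replicates (0.624 for each).

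**Figure D3:**
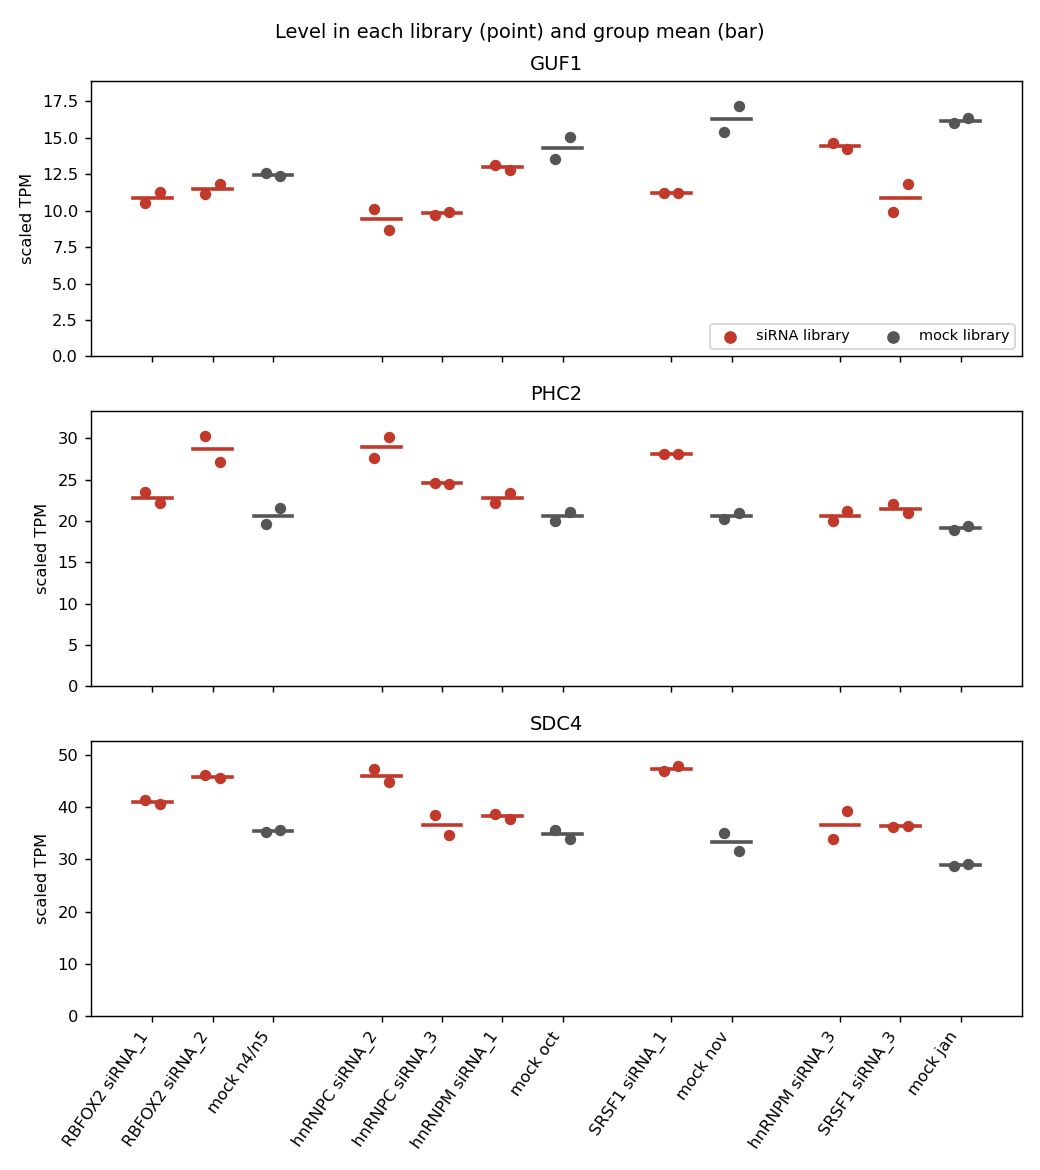
Scaled TPM (vertical axes, from 0) of GUF1, PHC2 and SDC4 in each of the 24 libraries, by group, with siRNA groups in red left of their mock set in grey; points are libraries and bars are means of 2. GUF1 points of siRNA groups lie under those of their mock set in all 4 sets, PHC2 points lie above in all 4, and SDC4 points lie above in 3 and overlap in the oct set.

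Among called genes with one sign in all 8 comparisons and a mean of at least 5 scaled TPM, the 10 named as risen were those whose smallest difference was largest. A lack of overlap with mock, or differences of similar size over the siRNAs, follow in part from this rule. How many of all tested genes lacked overlap was not counted. PGAP3, which remodels the lipid of GPI anchors in the Golgi, rose by 0.48 (SE 0.0950, limma adjusted p = 0.00889), with medians of 21.5 scaled TPM in 16 siRNA libraries (13.2 to 28.95) and 14.4 in 8 mock libraries (10.5 to 20.5). Its differences ran from 0.21 with hnRNPM siRNA_1 to 1.16 with SRSF1 siRNA_3. EME2, a partner of the MUS81 structure-specific endonuclease, rose by 0.40 (adjusted p = 0.00157), with medians of 7.23 scaled TPM with siRNA (5.14 to 9.68) and 5.34 in mock (3.61 to 6.03). RIMS4, a RIM family protein known from synapses, rose by 0.36 (adjusted p = 0.00147), and EMC10, a subunit of the ER membrane protein complex, by 0.31 (adjusted p = 0.0233). EMC10 libraries overlapped with mock in all 4 sets. CPQ, a carboxypeptidase, rose by 0.28 (adjusted p = 0.00179) and lay above mock without overlap in all 4 sets. The lysosomal membrane protein LAPTM4B rose by 0.25 (adjusted p = 0.00429), with medians of 122 scaled TPM with siRNA (95.6 to 165) and 105 in mock (88.8 to 123). The others were the arginine methyltransferase PRMT1 (0.27, adjusted p = 0.0181), the transcobalamin receptor CD320 (0.24, adjusted p = 0.0337), the sterol desaturase SC5D (0.22, adjusted p = 0.00759) and the isoaspartyl peptidase ASRGL1 (0.21, adjusted p = 0.0115). After the GC correction PRMT1 (adjusted p = 0.0653) and CD320 (0.0718) were no longer called.

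Among the 10 genes that fell by the same rule, CLGN, DNAJC10 and CANX encode chaperones or folding enzymes of the endoplasmic reticulum. CLGN, the calnexin relative calmegin, fell by 0.48 (SE 0.0759, limma adjusted p = 0.00242), with medians of 31.1 scaled TPM with siRNA (17.6 to 42.8) and 43.5 in mock (32.7 to 56.4). Its decrease was smallest with the hnRNPC siRNAs (-0.22 and -0.13) and largest with RBFOX2 siRNA_1 (-0.72). The disulfide reductase DNAJC10 fell by 0.28 (adjusted p = 0.00128), with medians of 8.95 scaled TPM with siRNA (6.19 to 11.6) and 11.2 in mock (10.6 to 12.7) and no overlap in any set. The lectin chaperone CANX fell by 0.23 (adjusted p = 0.0230), with medians of 234 scaled TPM with siRNA (198 to 285) and 281 in mock (249 to 303). PMS1, a MutL homologue of the mismatch repair family, had the most even decrease among the 10, between -0.32 and -0.20 in the 8 comparisons (mean -0.25, adjusted p = 0.00410, F test adjusted p = 0.959). Its siRNA libraries lay below mock in all 4 sets. Both follow in part from the rule, which picked genes by their smallest difference, as does the lack of overlap of the other genes named here. The golgin TRIP11 (GMAP-210) fell by 0.26 (adjusted p = 0.00742), also without overlap in any set. The others were the co-chaperone SGTB (-0.32, adjusted p = 0.00440), the KRAB zinc finger gene ZNF568 (-0.27, 0.00886), the proteasome ATPase-associated factor PAAF1 (-0.27, 0.0100), the Rab11 effector RAB11FIP2 (-0.20, 0.0238) and GGPS1, which makes geranylgeranyl diphosphate (-0.20, 0.00862).

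Of these 20 genes EME2, RIMS4, CPQ, LAPTM4B, SC5D, CLGN, DNAJC10, PMS1 and SGTB kept their call without each of the 24 libraries. Without mock oct replicate 3 the adjusted p was 0.0608 for PGAP3, 0.0971 for EMC10, 0.0575 for ASRGL1, 0.0528 for TRIP11, 0.0610 for ZNF568, 0.0608 for PAAF1, 0.137 for RAB11FIP2, 0.0590 for GGPS1 and 0.0513 for CANX. The calls also ended without mock n4/n5 replicate 4 for EMC10 (0.0776), RAB11FIP2 (0.0766) and CANX (0.0627), without mock jan replicate 1 for EMC10 (0.0770) and RAB11FIP2 (0.0761), without mock jan replicate 2 for PRMT1 (0.0521) and CANX (0.0653), and without mock oct replicate 1 for PRMT1 (0.0723) and CANX (0.0774). CD320 was lost without any of 12 libraries (adjusted p up to 0.156).

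Without a whole mock set or the siRNAs of 1 protein, EME2, RIMS4, CPQ, CLGN, DNAJC10, PMS1 and TRIP11 kept their call throughout. The call ended without the jan set for SC5D (adjusted p = 0.0762), SGTB (0.0596), PGAP3 (0.0888), EMC10 (0.0704), PRMT1 (0.0741), CD320 (0.146), ASRGL1 (0.107), RAB11FIP2 (0.0865), GGPS1 (0.0538) and CANX (0.0698). Without the SRSF1 siRNAs it ended for SC5D (0.0513), SGTB (0.0532), PGAP3 (0.158), EMC10 (0.0780), PRMT1 (0.0513), CD320 (0.0876), ASRGL1 (0.114), RAB11FIP2 (0.0999) and CANX (0.0752). Without the n4/n5 set, and so without the RBFOX2 siRNAs, it ended for LAPTM4B (0.0529), EMC10 (0.0801), PRMT1 (0.148), CD320 (0.0823), ASRGL1 (0.0519), RAB11FIP2 (0.174), GGPS1 (0.0522) and CANX (0.0834). Without the oct set it ended for ZNF568 (0.0685), PAAF1 (0.0689), EMC10 (0.105), CD320 (0.116) and CANX (0.0913), without the nov set for RAB11FIP2 (0.0701) and CANX (0.0728), and without the hnRNPC siRNAs for CD320 (0.0693) and CANX (0.0704). CANX was also lost under the quantile and common-total scalings.

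**Figure D4:**
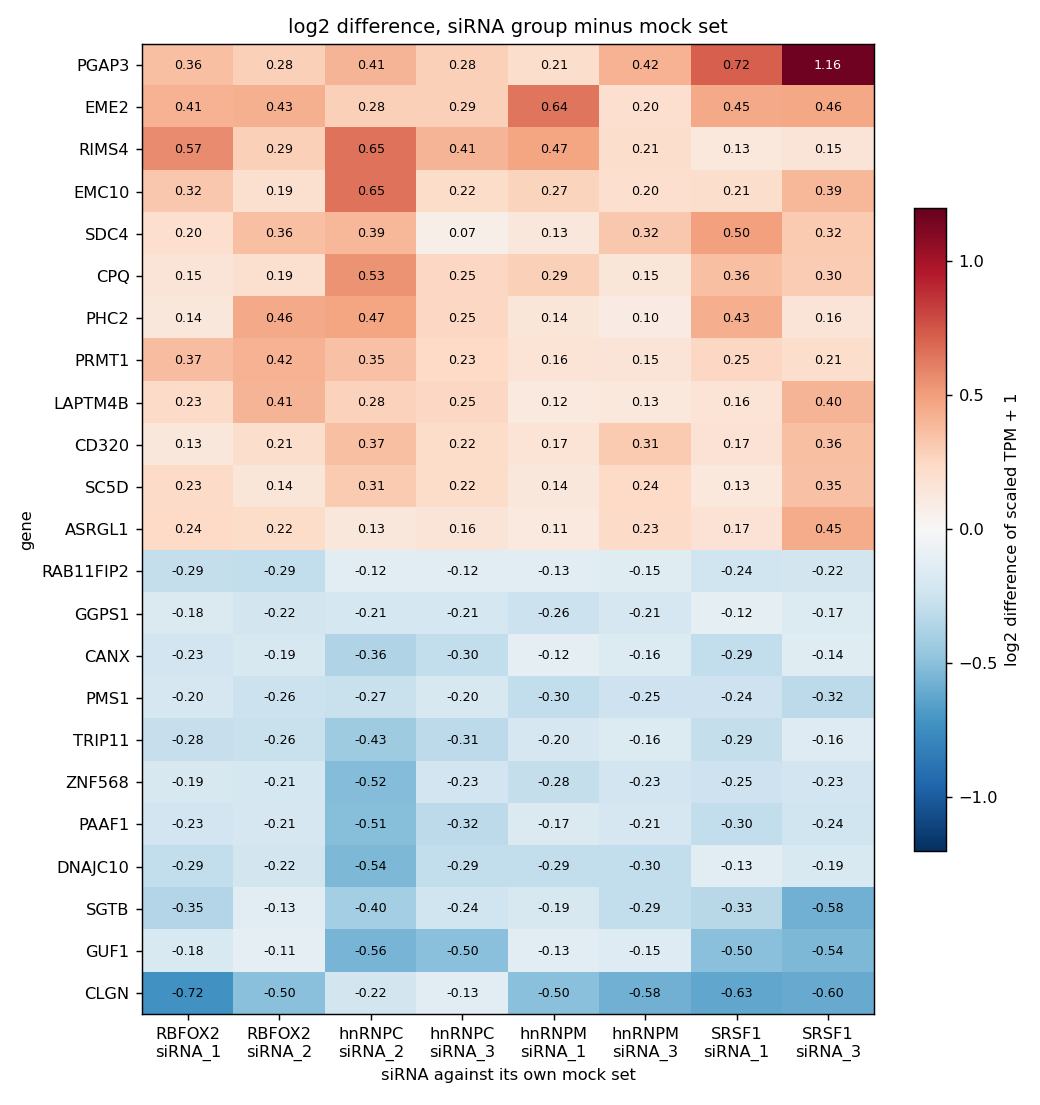
Difference of log2(scaled TPM + 1) between each siRNA group and its own mock set (columns, 8 siRNAs) for GUF1, PHC2, SDC4 and the 20 genes named by the size of their smallest difference (rows, sorted by mean); red is higher and blue lower with siRNA. Each row has one sign throughout, as the rule required, and PGAP3 with SRSF1 siRNA_3 (1.16) and CLGN with RBFOX2 siRNA_1 (-0.72) are the extremes.

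Of 36 tested interferon-stimulated genes 1 rose and 1 fell (2.78% each, against 2.11% and 3.62% of all tested genes), which is near the background. In this list 21 were higher than mock (58.3%, against 48.2% of all tested genes) and the median log2 change was 0.02, against -0.005 over all tested genes. IFITM3, which restricts viral entry in endosomes, rose by 0.31 (SE 0.0726, limma adjusted p = 0.0211), with medians of 35.1 scaled TPM with siRNA (21.6 to 50.9) and 27.8 in mock (20.7 to 34.8), although its differences ran from -0.13 to 0.76 (F test adjusted p = 0.0320). HERC6 fell by 0.18 (adjusted p = 0.0226). ISG15 and IFIT1, chosen after their values were seen, were near mock. ISG15 stood at medians of 4.92 scaled TPM with siRNA and 5.28 in mock (log2 difference -0.04, adjusted p = 0.842), and the weakly expressed IFIT1 at 0.677 and 0.697 (0.08, adjusted p = 0.669). Other members, also picked by their values, stood higher without being called, among them IFITM2 (0.23, adjusted p = 0.108), BST2 (0.23, 0.0830) and IRF7 (0.22, 0.0938). Lower than mock were 15 of the 36. Of 13 tested genes of double-stranded RNA sensing 1 rose (7.69%, against 2.11% of all tested genes) and 2 fell (15.4%, against 3.62%). On leaving out any single library between 0 and 1 rose and between 0 and 2 fell. IRF3 rose by 0.16 (adjusted p = 0.0448), and the ubiquitin ligase TRIM25, which acts on RIG-I, and the helicase DHX36 fell by 0.22 (adjusted p = 0.0448) and 0.18 (adjusted p = 0.0450). The sensors themselves, chosen after their values were seen, were not called: EIF2AK2 stood at -0.06 (adjusted p = 0.474), DDX58 at 0.12 (0.151) and IFIH1 at -0.06 (0.568). Of 17 RNA interference factors AGO4 fell by 0.17 (adjusted p = 0.00742, F test adjusted p = 0.0121), which made 5.88% of the list, against 3.62% of all tested genes. The other 16 were not called, among them, chosen after their values were seen, AGO2 (0.04, adjusted p = 0.662) and DICER1 (-0.10, adjusted p = 0.0975). Of 17 tested targets of the let-7 microRNA THBS1 rose by 0.22 (adjusted p = 0.0306) and TGFBR1 fell by 0.17 (adjusted p = 0.0443). THBS1 averaged 1.11 scaled TPM, near the filter of 1 TPM. The 2 genes made 5.88% of the list each, against 2.11% of all tested genes that rose and 3.62% that fell. Higher than mock were 11 (64.7%, against 48.2% of all tested genes), and the median was 0.05. Of 20 NF-kB and inflammatory genes the cytokine gene IL1A fell by 0.41 (adjusted p = 0.0303), from -1.02 to 0.16 by siRNA (F test adjusted p = 0.0113). This made 5% of the list, against 3.62% of all tested genes, and 19 were not called. The list median of 0.01 changed sign with the GC correction and when single libraries were left out. The interferon median turned below 0 without the jan set. Without any one of 18 libraries IRF3, TRIM25 and DHX36 each lost their call (adjusted p up to 0.132, 0.176 and 0.140), TGFBR1 without any of 19 (up to 0.168) and THBS1 without any of 8 (up to 0.0814). Without mock oct replicate 3 the adjusted p was 0.0508 for AGO4, 0.0613 for IFITM3, 0.112 for HERC6 and 0.179 for IL1A. IFITM3, HERC6 and IL1A were also lost without mock n4/n5 replicate 4 (0.0576, 0.0648 and 0.0972) and mock jan replicate 1 (0.0544, 0.0770 and 0.0920), and IFITM3 without mock oct replicate 1 (0.0658). Without the jan set the call ended for AGO4 (0.0720), IFITM3 (0.144), HERC6 (0.0614) and IL1A (0.109). Without the n4/n5 set it ended for IFITM3 (0.148), HERC6 (0.0584) and IL1A (0.0520), and without the oct set for HERC6 (0.388) and IL1A (0.204). AGO4, IFITM3 and IL1A were also lost without the SRSF1 siRNAs (0.146, 0.126 and 0.117). HERC6 and IL1A were lost without the hnRNPC siRNAs as well (0.184 and 0.150).

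Of 22 tested genes of the ATF4 pathway and the unfolded protein response 5 fell (22.7%, against 3.62% of all tested genes) and 0 rose, 17 were lower than mock (against 51.8% of all tested genes below 0) and the median was -0.09. On leaving out any single library the number that fell was between 2 and 7, lowest without any of several libraries and highest without hnRNPC siRNA_2 replicate 1, and the median lay between -0.11 and -0.08. PSAT1 and PHGDH encode enzymes of serine synthesis. PSAT1 fell by 0.27 (SE 0.0470, limma adjusted p = 0.00486), with medians of 75.9 scaled TPM with siRNA (40.4 to 87.4) and 83.5 in mock (74.8 to 102). Its decrease was largest with hnRNPM siRNA_1 (-1.13; F test adjusted p = 0.000176), and it lost its call without the hnRNPM siRNAs (adjusted p = 0.0708) and without the oct set (0.0567). PHGDH fell by 0.21 (adjusted p = 0.0409), the cystine transporter gene SLC7A11 by 0.22 (adjusted p = 0.0376) and the mTORC1 inhibitor gene DDIT4 by 0.16 (adjusted p = 0.0408), but each was lost without any of 19, 14 and 17 libraries (up to 0.169, 0.194 and 0.126). DNAJB9, an ER co-chaperone induced by XBP1, fell by 0.23 (adjusted p = 0.00323), with medians of 11.2 scaled TPM with siRNA (9.66 to 16.3) and 13.8 in mock (12.2 to 18.2). PSPH, the last enzyme of serine synthesis, was no member and was chosen after its value was seen; it fell by 0.24 (adjusted p = 0.00366). Members chosen after their values were seen were not called: ATF4 itself stood at 0.03 (adjusted p = 0.719), the chaperone HSPA5 at -0.34 (0.0551) and DDIT3 at -0.12 (0.138). In all 17 members were not called. This and the other gene lists were chosen with earlier results of these data known, so their shares add no independent support.

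Mitochondrial translation had 6 of 33 tested members that fell (18.2%, against 3.62% of all tested genes) and 0 that rose; 22 were lower than mock (against 51.8% of all tested genes) and the median was -0.03. Besides GUF1 these included GFM2, which recycles mitochondrial ribosomes (-0.25, limma adjusted p = 0.00202), the aminoacyl-tRNA synthetases IARS2 (-0.17, 0.00973) and RARS2 (-0.15, 0.0395), and the initiation factor MTIF2 (-0.19, 0.0192). GFM2 had medians of 10.2 scaled TPM with siRNA (8.18 to 12.2) and 12.6 in mock (11.6 to 14.6). IARS2 held without each library, MTIF2 lost its call without replicate 3 of mock oct (adjusted p = 0.0906), mock n4/n5 replicate 4 (0.0639) and mock jan replicate 1 (0.0611), and RARS2 without any of 15 (up to 0.193). The number that fell was between 4 and 7 when single libraries were left out, and after the GC correction 5 fell and 1 rose. GUF1, counted in these numbers, was proposed with the data in view, and the list was chosen with earlier results known. The share that fell therefore describes the list and adds no independent support.

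In cholesterol synthesis 20 of 24 genes were higher than mock (83.3%, against 48.2% of all tested genes), with a median of 0.11, between 0.08 and 0.15 when single libraries were left out; 3 rose (12.5%, against 2.11% of all tested genes), between 1 and 4 on leaving out any single library, and 0 fell. SC5D, named above for its large smallest difference, had medians of 20.7 scaled TPM with siRNA (18.2 to 24.4) and 18.1 in mock (15.6 to 20.3), with no overlap in any set. SREBF2, the transcription factor that activates sterol genes, rose by 0.21 (SE 0.0447, limma adjusted p = 0.0130), with medians of 18.3 scaled TPM with siRNA (15.1 to 23.8) and 15.6 in mock (13.5 to 18.2). HSD17B7 rose by 0.21 (adjusted p = 0.0446), from -0.07 to 0.74 by siRNA (F test adjusted p = 0.0384). Members that were not called, chosen after their values were seen, included HMGCS1 (0.12, adjusted p = 0.107) and SQLE (0.12, 0.126). Among 35 lysosome and autophagy genes LAMP1, a major glycoprotein of the lysosomal membrane, rose by 0.24 (SE 0.0384, adjusted p = 0.00300), with medians of 78.3 scaled TPM with siRNA (68.6 to 87.3) and 69.6 in mock (57.6 to 74.8) and no overlap in any set. SC5D and LAMP1 were called with one sign in all 8 comparisons, and how many of all tested genes lacked overlap was not counted. TFEB, a transcription factor of lysosomal genes, rose by 0.24 (adjusted p = 0.0216). With LAMP1 this made 5.71% of the list, against 2.11% of all tested genes, and 33 were not called. The list median of 0.02 turned to -0.02 without mock oct replicate 3. Of 31 endocytosis genes the clathrin adaptor subunit AP2M1 rose by 0.18 (adjusted p = 0.00829), or 3.23% of the list against 2.11% of all tested genes. The other 30 were not called. The list median of 0.002 changed sign in several alternatives, among them equal weights for the mock sets. Of 23 genes of syndecans, glypicans and heparan sulfate synthesis 2 rose (8.70%, against 2.11% of all tested genes) and 21 were not called. The 2 were SDC4, which was proposed with the data in view, and B3GAT3, which completes the linker of the sugar chains (0.38, adjusted p = 0.0140). The list median was 0.05, and -0.0008 without mock oct replicate 3. Without mock oct replicate 3 the adjusted p was 0.0712 for SREBF2, 0.0777 for B3GAT3 and 0.0935 for TFEB, which was also lost without mock jan replicate 1 (0.0523) and replicate 2 (0.0536) and after the GC correction (0.0913). HSD17B7 was lost without any of 20 libraries (up to 0.131), whereas the calls of SC5D, LAMP1 and AP2M1 held without each library. LAMP1 and AP2M1 were lost without the jan set (0.0518 and 0.0751), as was SC5D, and AP2M1 also without the oct set (0.0827) and the hnRNPC siRNAs (0.0624). SREBF2 was lost without the n4/n5 set (0.0795) and the oct set (0.0668). B3GAT3 was lost without the jan set (0.0791), the n4/n5 set (0.0617), the nov set (0.0678) and the SRSF1 siRNAs (0.174). TFEB was lost without the jan set (0.0829), the nov set (0.0736), the oct set (0.0882) and the SRSF1 siRNAs (0.0909). HSD17B7 stood at 0.07 without the oct set (adjusted p = 0.593).

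Of 29 Polycomb genes PHC2, which was proposed with the data in view, rose (3.45%, against 2.11% of all tested genes). PCGF6 (-0.20, limma adjusted p = 0.0365) and the histone chaperone RBBP4 (-0.13, adjusted p = 0.0318) fell (6.90%, against 3.62% of all tested genes). The other 26 were not called, and the median of 0.02 turned below 0 without the jan set. Replication-dependent histones, whose messenger RNAs end without a poly(A) tail and are kept by ribosome depletion, had 20 of 22 tested members higher than mock (90.9%, against 48.2% of all tested genes), a median of 0.15 and 0 calls. Single libraries moved this: 14 were higher with a median of 0.04 without mock oct replicate 1, and 21 with a median of 0.26 without mock oct replicate 3. The median was 0.07 without mock n4/n5 replicate 5, 0.09 without hnRNPM siRNA_1 replicate 3, 0.10 without mock jan replicate 2 and 0.24 without mock n4/n5 replicate 4. HIST2H4A, which has near-identical copies, stood at 2.92 (SE 1.25, adjusted p = 0.193), with medians of 41.3 scaled TPM with siRNA (0 to 203) and 0.0481 in mock (0 to 62.0); how reads were divided between copies is not stated in the labels. In G1/S and DNA replication 20 of 29 were higher (69.0%, against 48.2% of all tested genes), with a median of 0.07. MCM5 (0.21, adjusted p = 0.0328) and cyclin E1, CCNE1 (0.20, adjusted p = 0.0211), rose (6.90%, against 2.11% of all tested genes). In G2/M and mitosis 0 of 30 were called, and the median of -0.06 lay between -0.17 and 0.05 on leaving out any single library. Of 21 p53 targets CDKN1A (0.27, adjusted p = 0.0412), GDF15 (0.25, adjusted p = 0.0368) and AEN (0.23, adjusted p = 0.0207) rose (14.3%, against 2.11% of all tested genes). MDM2 fell by 0.17 (adjusted p = 0.0485), which made 4.76% of the list against 3.62% of all tested genes. The median was -0.005 and changed sign with the GC correction, after which 0 of the 21 rose. All 16 tested immediate early and AP-1 genes were higher than mock (against 48.2% of all tested genes), with a median of 0.15. CYR61, weakly expressed at a mean of 1.72 scaled TPM, was called (0.33, adjusted p = 0.0255), so that 6.25% of the list rose, against 2.11% of all tested genes. The number that rose depended on single libraries: it was 7 without hnRNPC siRNA_3 replicate 3, 6 without hnRNPC siRNA_2 replicate 3, and 0 without mock oct replicate 3, mock n4/n5 replicate 4 or mock jan replicate 2. FOS and EGR1, chosen after their values were seen, varied widely: FOS stood at medians of 3.36 scaled TPM with siRNA (1.28 to 27.9) and 1.40 in mock (0.517 to 5.10), a log2 difference of 0.98 (SE 0.360, adjusted p = 0.126), and EGR1 at 0.78 (SE 0.335, adjusted p = 0.194). CDKN1A, GDF15 and MDM2 lost their call without any of 17, 13 and 20 libraries (adjusted p up to 0.121, 0.111 and 0.164), PCGF6, RBBP4 and MCM5 without any of 14, 11 and 8 (up to 0.178, 0.0997 and 0.171). Without the oct set CDKN1A stood at 0.13 (adjusted p = 0.480), GDF15 at 0.11 (0.524), RBBP4 at -0.05 (0.499) and PCGF6 at -0.13 (0.234). These calls also ended without the hnRNPC siRNAs (0.185, 0.330, 0.245 and 0.157). Without the n4/n5 set the call ended for CDKN1A (0.189), GDF15 (0.120), RBBP4 (0.0642), PCGF6 (0.0551), MCM5 (0.240), AEN (0.174), CCNE1 (0.121) and CYR61 (0.211). Without the jan set it ended for MCM5 (0.161), RBBP4 (0.115), PCGF6 (0.102), CCNE1 (0.0793), AEN (0.0662), GDF15 (0.0587), CYR61 (0.0515) and CDKN1A (0.0506). Leaving out the oct set also ended CYR61 (0.145), CCNE1 (0.0594), AEN (0.0567) and MCM5 (0.0507), and leaving out the hnRNPC siRNAs CYR61 (0.0998). PCGF6 (0.126) and CCNE1 (0.0630) were lost without the SRSF1 siRNAs, RBBP4 (0.0674) and MCM5 (0.0575) without the hnRNPM siRNAs, and PCGF6 (0.0804) without the nov set. Without mock n4/n5 replicate 4 the adjusted p was 0.0602 for AEN, 0.0635 for CCNE1 and 0.0734 for CYR61, without mock jan replicate 1 it was 0.0560 for AEN and 0.0544 for CCNE1, without mock jan replicate 2 it was 0.0505 for CCNE1 and 0.0704 for CYR61, without mock oct replicate 3 it was 0.116 for CCNE1 and 0.107 for CYR61, and without mock oct replicate 1 it was 0.0824 for AEN.

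Hypoxia and stress genes that fell did so unevenly. Of 26 hypoxia and glycolysis genes NDRG1 fell by 0.29 (limma adjusted p = 0.00728), the mitophagy receptor gene BNIP3 by 0.26 (adjusted p = 0.0199) and the prolyl hydroxylase subunit P4HA1 by 0.21 (adjusted p = 0.0230). This made 11.5% of the list, against 3.62% of all tested genes that fell. In the same list 0 rose, and the median was -0.04. NDRG1 ran from -0.86 to 0.20 and BNIP3 from -0.56 to 0.39 by siRNA (F test adjusted p = 0.000273 and 0.00441). Of 17 heat shock genes the transcription factor HSF2 fell by 0.31 (adjusted p = 0.00339), or 5.88% of the list against 3.62% of all tested genes. It ran from -1.32 to 0.05 by siRNA (F test adjusted p = 1.02e-05) and lost its call without the hnRNPM siRNAs (adjusted p = 0.989). The list median was -0.04 and turned above 0 without those siRNAs. Of 19 SR protein and SR kinase genes SRPK1 (-0.16, adjusted p = 0.0130) and CLK4 (-0.17, adjusted p = 0.0423) fell besides the targeted SRSF1. With SRSF1 this made 15.8% of the list, against 3.62% of all tested genes. The list median of -0.01 changed sign with the GC correction. SRPK1 stood at 0.02 (adjusted p = 0.836) without the oct set and at -0.04 (0.634) without the hnRNPC siRNAs. Of 27 hnRNP genes RALY rose by 0.14 (adjusted p = 0.0235), or 3.70% of the list, against 2.11% of all tested genes. The targeted HNRNPC and HNRNPM fell (7.41%, against 3.62% of all tested genes), and the list median was -0.06. Of 17 genes listed for nonsense-mediated decay, which include the non-coding transcript GAS5, UPF1 rose by 0.18 (adjusted p = 0.0139). UPF1 had medians of 13.1 scaled TPM with siRNA (11.4 to 14.3) and 11.1 in mock (10.2 to 12.4). In this list 5.88% rose (against 2.11% of all tested genes) and 12 were higher than mock (70.6%, against 48.2% of all tested genes), with a median of 0.03. After the GC correction P4HA1, CLK4, RALY and UPF1 were no longer called (adjusted p = 0.0598, 0.0532, 0.120 and 0.109). The averages of the 4 targeted genes (RBFOX2 -0.42, HNRNPC -0.41, HNRNPM -0.57, SRSF1 -0.53, all called) lost their call without their own siRNAs. RBFOX2 then stood at -0.02 (adjusted p = 0.882), HNRNPC at 0.04 (0.734), SRSF1 at 0.02 (0.960) and HNRNPM at -0.15 (0.208), with HNRNPM lower than mock with 5 of the 6 other siRNAs. CLK4 was lost without any of 18 libraries (up to 0.193). Without mock oct replicate 3 the adjusted p was 0.0756 for SRPK1, 0.0773 for UPF1, 0.109 for BNIP3, 0.102 for P4HA1 and 0.0566 for RALY; without mock jan replicate 2 it was 0.0616 for BNIP3, 0.0655 for P4HA1 and 0.0651 for RALY, without mock n4/n5 replicate 4 it was 0.0756 for P4HA1 and 0.0581 for RALY, and without mock oct replicate 1 it was 0.0713 for RALY. NDRG1 and HSF2 held without each library, but both were lost without the jan set (0.0793 and 0.0896), and NDRG1 without the n4/n5 set (0.0524). UPF1 was also lost without the jan set (0.0738), the n4/n5 set (0.222), the nov set (0.0528) and the SRSF1 siRNAs (0.0704). BNIP3, P4HA1 and RALY were lost without the jan set (0.0720, 0.0865 and 0.105) and the n4/n5 set (0.0987, 0.0561 and 0.272). P4HA1 was also lost without the oct set (0.147) and the hnRNPC siRNAs (0.122). BNIP3 was also lost without the nov set (0.0522), the SRSF1 siRNAs (0.0740) and the hnRNPC siRNAs (0.118).

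**Figure D5:**
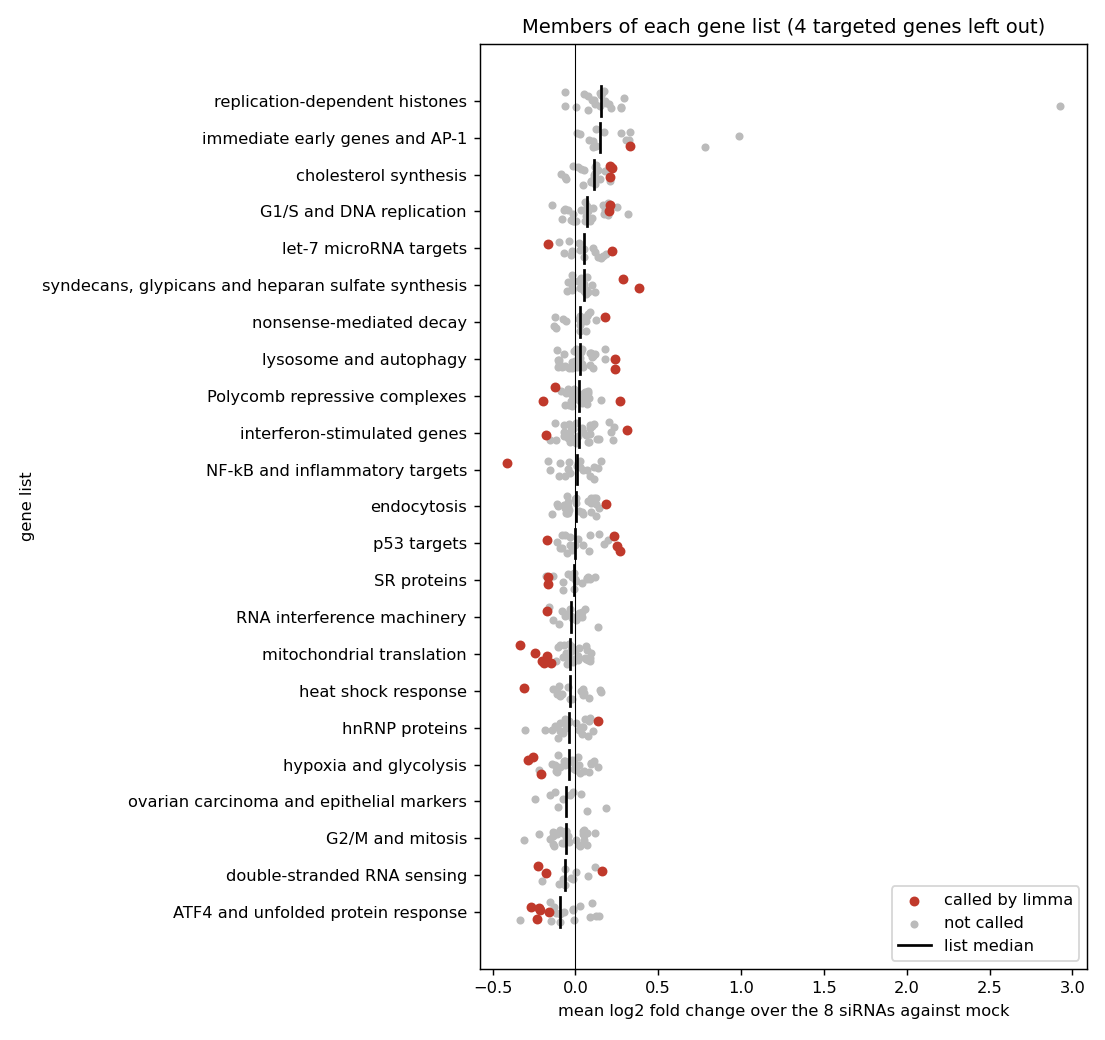
Mean log2 fold change over the 8 siRNAs against mock (horizontal axis) of each tested member of 23 gene lists (rows), with the 4 targeted genes left out; red points were called by limma, grey points were not, and black bars are list medians. The histones and the immediate early genes have the highest medians (both 0.15) and the ATF4 and unfolded protein response list the lowest (-0.09), and red points stand on both sides of 0 in the interferon, let-7, Polycomb and p53 lists among others.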

How the data were processed

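The deposited table holds TPM for 57773 genes in 24 libraries, with a sum of 1000000 in each. Per the labels' protocols, ribosome-depleted total RNA was fragmented and copied by TGIRT. Per the submitters' processing notes, TopHat2 2.0.9, SAMtools 0.1.19.0, Trimmomatic 0.38, Bowtie2 2.1.0.0 and FastQC 0.10.1 were used with hg19. The counting tool, annotation and use of strand are not given in the sources used here, so overlapping, antisense and near-identical genes have an uncertain assignment.

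Median-ratio factors, from the 22727 genes with no 0 value, (0.656 to 1.40) were applied, 1 was added, and log2 values were fitted in limma 3.58.1 (R 4.3.3) with 12 group means and a mean-variance trend, for the 16994 genes that reached 1 TPM in 2 or more libraries. The residual degrees of freedom were 12. The contrast was the mean over the 8 siRNA groups of the difference from their own mock set, with Benjamini-Hochberg adjustment over all tested genes, and the F test asked whether the 8 differences were equal. Library measures were compared by exact permutation within mock sets (37800 arrangements). GENCODE gene types and GC content matched 16260 tested genes by identifier, and no coordinates of the deposited table were used. The 276 pairs of libraries held 0 with identical values.

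Genes were named by a rule: GUF1, PHC2 and SDC4; the 4 targeted genes; the 10 higher and 10 lower genes of one sign with the largest smallest difference; and up to 3 called members of each list. Other genes are called members of a list or were chosen after their values were seen; a few genes are not reported here. The members, lists and rule were chosen with earlier results of these data known. Alternatives were other scalings, pseudocount, filters, GC correction, replicate block, weights, controls, empirical Bayes settings, siRNA groups as replicates, and leaving out libraries, mock sets or proteins; leaving out a pair of libraries and counting the lists under each alternative were added after seeing the data.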

Additional observations from a re-analysis of the deposited data

Results flagged for a closer look

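A closer look was called for where the 8 siRNAs differed from one another in their difference from mock, by the F test of equal differences in limma (16994 genes tested, 2907 with an adjusted p under 0.05, or 17.1%). This held for the 3 leading genes, with adjusted p-values of 0.00526 for GUF1, 0.00797 for PHC2 and 0.0359 for SDC4, whose 8 differences nevertheless had one sign. For the targeted genes it was 5.20e-05 for SRSF1, 3.80e-06 for HNRNPC, 3.28e-06 for RBFOX2 and 3.80e-06 for HNRNPM, each low in the libraries of its own siRNAs. Among called members of the gene lists it was 0.0320 for IFITM3, 0.0398 for HERC6, 0.0121 for AGO4, 0.00298 for TGFBR1 and 0.0113 for IL1A. It was 0.000176 for PSAT1, 0.0390 for DDIT4, 0.0437 for IARS2 and 0.0226 for RARS2 among serine, stress and mitochondrial translation genes, and 0.0457 for GDF15, 0.0384 for HSD17B7, 1.02e-05 for HSF2, 0.000273 for NDRG1, 0.00441 for BNIP3, 0.0214 for P4HA1 and 0.00469 for SRPK1 among the rest.

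Genes outside the naming rule, chosen after their values were seen, included some with one sign in all 8 comparisons: 0.0243 for NMI, 0.0158 for SLTM, 4.13e-05 for EIF4G3, 0.0229 for CEP290, 0.0154 for ATM, 0.0195 for GFPT1, 9.65e-05 for CDH6, 0.0143 for ID4, 0.00474 for MGAT1 and 0.0215 for VPS8. Others were not called on average: 0.0135 for IFIT2, 0.000302 for KRT7, 0.00593 for KRT8, 0.0195 for SQLE, 0.0276 for ASNS, 0.0161 for MYC and 0.000217 for SDC1. What the differences between siRNAs rest on was not tested.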

How the results depend on the processing

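GUF1, PHC2 and SDC4 kept their direction in every alternative tried. The count of called genes, 974, was 51 with the TPM as deposited, 2238 with replicate number as a block, 2285 with the GC correction and the block, 1625 with all 8 mock libraries as control and 0 with siRNA groups as replicates. It was 341 without the jan set, 478 without the n4/n5 set or the RBFOX2 siRNAs, which are the same libraries, 573 without the nov set and 453 without the SRSF1 siRNAs, and 399 to 1142 without single libraries. The count of one sign in all 8, 932, was 212 as deposited and 727 to 1201 without single libraries, and the count of called genes of one sign, 357, was 8 as deposited, 617 with the block and 149 to 426 without single libraries. Genes that differed between siRNAs, 2907, numbered 653 as deposited, 5650 with the block, 7071 with the GC correction and the block, 8982 with all mock libraries as control, 1758 without mock nov replicate 1 and hnRNPC siRNA_2 replicate 3 (a pair chosen after seeing the data), and 1923 to 2977 without single libraries, lowest without hnRNPC siRNA_2 replicate 3. The causes of these shifts were not tested.

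The calls upward were 36.9% and became 49.1% with a common total, 49.0% as deposited and 48.2% without the oct set. The small structured RNA difference of -0.175 points was 1.24 without the n4/n5 set (exact permutation p = 0.419) and 0.0255 without the nov set (p = 0.977). HNRNPC turned to 0.070 without the oct set and 0.045 without the hnRNPC siRNAs, SRSF1 to 0.016 without the SRSF1 siRNAs, and SRPK1 to 0.019 without the oct set. Of 63 genes named by the rule 24 held without every single library, and 5 were called as deposited.

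The labels do not say what a replicate number marks. Deviations of same-numbered libraries within a mock set correlated above 0.1 in 12 of 13 pairs, including every pair of the oct, jan and nov sets (0.150 to 0.430), so same-numbered libraries there share variation. The 13th pair, the RBFOX2 siRNAs, stood at 0.0613. The numbers were taken as pairing only if every pair passed 0.1, so the counts without the block are the ones reported, and the block raised them as given above. TPM keep no depth, which limits what can be said of weakly expressed genes.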

Other observations

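Of the 357 genes called with one sign in all 8 comparisons, 113 held their call without each of the 24 libraries, and 42 of these also without each of the 4 mock sets and each of the 4 proteins. Several of the 42 belong to no list, and those given here were chosen after their values were seen. GFPT1, which commits fructose 6-phosphate to the hexosamine pathway, fell by 0.34 on the log2 scale (limma adjusted p = 0.000598), with medians of 38.3 scaled TPM with siRNA (30.7 to 47.5) and 53.4 in mock (42.4 to 60.4). The DNA damage kinase ATM fell by 0.25 (adjusted p = 0.00271) and the centrosomal protein CEP290 by 0.38 (adjusted p = 0.00132). MGAT1, which starts the branching of complex N-glycans, rose by 0.32 (adjusted p = 0.00618) and the HLH inhibitor ID4 by 0.38 (adjusted p = 0.00145). The translation initiation scaffold EIF4G3 fell by 0.47 (adjusted p = 0.000212), with differences from -1.27 to -0.01, so that one sign in all 8 included siRNAs with almost no difference.

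PGAP3 lies next to ERBB2 in the RefSeq gene order, in a region with MIEN1, GRB7 and STARD3. These neighbours, also chosen after their values were seen, stood at mean log2 differences of 0.18 for ERBB2 (limma adjusted p = 0.155), with medians of 552 scaled TPM with siRNA (452 to 652) and 446 in mock (383 to 620), 0.13 for MIEN1 (0.181), 0.33 for GRB7 (0.0443) and 0.21 for STARD3 (0.0880). GRB7 was lost without any of 17 libraries (adjusted p up to 0.216), and the F tests of the 4 gave adjusted p-values of 0.818, 0.286, 0.442 and 0.796.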
